A study of Homo sapiens with 6 samples.

Results

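Transcripts of TFIIH, the general transcription factor that opens promoter DNA for RNA polymerase II, were followed gene by gene in a colorectal cancer cell line carrying an shRNA against the kinase gene CDKL1. The complex was taken as 10 subunit genes: GTF2H1, GTF2H2, GTF2H3, GTF2H4, GTF2H5, ERCC2, ERCC3, CDK7, CCNH and MNAT1. A gene was read from array probe sets (groups of short oligonucleotides that report 1 transcript region) whose annotation held its symbol and no other, and the brightest of them gave the main value. By this rule 9 of the 10 subunit genes were measured, of 18132 genes in all. GTF2H2 had no such probe set. The complex was chosen by the difference of GTF2H3 between these groups, which is therefore given as a description without a test. The other subunits were included through their membership of the complex.

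The cells were DLD1, a long-established line from a human colorectal adenocarcinoma, and received lentivirus expressing CDKL1 shRNA (3 samples) or control shRNA (3 samples). Both groups thus carried a lentiviral shRNA, and neither the hairpin sequences nor the time after infection is given in the sources used here. Total RNA of each sample was hybridised to 1 Affymetrix array, and the values are log2 expression values that the authors normalised by RMA, so a difference of 1 is a doubling. The labels do not say whether samples came from separate infections or cultures. The p-values therefore set a group difference against the scatter of these samples only, which may be technical in part.

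TFIIH has a core of 7 subunits and a detachable kinase module of 3. In the core, the DNA translocase encoded by ERCC3 opens promoters and acts in nucleotide excision repair, the helicase encoded by ERCC2 opens DNA around damage in that repair, and the remaining subunits hold, activate or recruit these enzymes. The kinase module, made of CDK7, cyclin H (CCNH) and the assembly factor MNAT1, phosphorylates the tail of RNA polymerase II and also activates cell cycle CDKs. Inherited defects of ERCC2, ERCC3 or GTF2H5 cause the repair and transcription disorders xeroderma pigmentosum or trichothiodystrophy.

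The promoter windows of 3 subunit genes are shown because these genes held the probe sets that differed most between the groups. Each is the RefSeq window of 300 bases on GRCh38.p14, from 250 bases before the annotated start to 50 bases after it, read 5′ to 3′ on the strand of the gene. Capitals mark the core of the ETS-family binding motif, CCGGAA, on either strand (TTCCGG when reversed). The windows lie at chr12:123633579-123633878 on the plus strand (GTF2H3), chr2:127294095-127294394 on the minus strand (ERCC3) and chr6:30907957-30908256 on the plus strand (GTF2H4).
GTF2H3: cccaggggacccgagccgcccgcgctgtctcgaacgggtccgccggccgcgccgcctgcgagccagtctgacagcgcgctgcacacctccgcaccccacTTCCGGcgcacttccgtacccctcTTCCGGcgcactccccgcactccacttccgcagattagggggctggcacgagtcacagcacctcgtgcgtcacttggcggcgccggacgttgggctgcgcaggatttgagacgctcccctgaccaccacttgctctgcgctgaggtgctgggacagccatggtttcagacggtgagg
ERCC3: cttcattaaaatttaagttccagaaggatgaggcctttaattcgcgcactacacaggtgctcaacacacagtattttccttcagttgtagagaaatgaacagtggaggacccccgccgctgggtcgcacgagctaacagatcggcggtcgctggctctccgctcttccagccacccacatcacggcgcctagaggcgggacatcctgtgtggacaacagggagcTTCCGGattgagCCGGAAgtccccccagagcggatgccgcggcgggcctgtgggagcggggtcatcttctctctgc
GTF2H4: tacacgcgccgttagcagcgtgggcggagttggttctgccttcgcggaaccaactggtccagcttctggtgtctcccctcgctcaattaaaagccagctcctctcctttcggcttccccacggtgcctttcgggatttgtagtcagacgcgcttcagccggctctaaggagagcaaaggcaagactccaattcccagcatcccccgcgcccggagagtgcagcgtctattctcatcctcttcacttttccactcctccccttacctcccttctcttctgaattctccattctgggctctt

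The GTF2H3 window held the ETS core at 2 places, 151 and 127 bases before the start, and the ERCC3 window at 2 places, 26 and 14 bases before the start. The GTF2H4 window did not hold these letters. Over the 10 subunit genes, 6 windows held the ETS core (those of CCNH, ERCC3, GTF2H1, GTF2H2, GTF2H3 and MNAT1), against 17.6% of 27305 promoter windows of the same length. The E-box CACGTG, which reads the same on both strands, was found in the windows of CDK7 and GTF2H1 and in 7.43% of all windows. The TATA box TATAAA, on either strand (TTTATA when reversed), was found in 0 of the 10 subunit windows and in 11.95% of all windows. These matches describe letters and not bound sites.

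The targeted gene could not serve as a check of the groups. CDKL1 lay at log2 levels of 4.25, 4.20 and 4.08 in CDKL1 shRNA arrays, against 4.51, 4.42 and 4.17 in control shRNA arrays, all inside a background range of 2.97 to 4.92, the means of the background controls whose probes hold 10 to 16 G or C. Its log2 change of -0.19 did not pass (limma, adjusted p = 0.219). Of 10 colorectal epithelial markers 9 lay above that range, with EPCAM at a mean of 13.53, while KRT20 rose by 0.52 and VIL1 fell by 0.57. Markers of other cells reached at most 7.25 (CD68, which rose by 0.39), and 3 of 6 fibroblast, 4 of 5 leukocyte, 3 of 4 endothelial and 2 of 4 kidney-line or neural markers lay above the range. The sum of the log2 values of the leukocyte markers was 26.5 to 26.8 in CDKL1 shRNA arrays and 26.5 to 26.9 in control shRNA arrays. That sum includes dim markers such as PTPRC, at a mean of 3.55, so it does not show that leukocyte signal was unchanged. Over all non-control probe sets, r was 0.9951 to 0.9961 between arrays of different groups and 0.9976 to 0.9984 within a group. The 3' minus 5' difference of the ACTB control probe sets, a sign of RNA quality, was 1.52 to 1.73 in CDKL1 shRNA arrays and 1.39 to 1.41 in control shRNA arrays. The same difference of the GAPDH control probe sets was 0.246 to 0.297 in CDKL1 shRNA arrays and 0.187 to 0.222 in control shRNA arrays. Both thus separated the groups in every comparison below, and fits with the ACTB difference as a covariate are given for the main results. As this covariate goes with group, the 2 cannot be fully told apart, and a call lost in such a fit can come from lost precision. Whether RNA quality made any of the changes was not tested. In such bulk samples, fewer cells that express a gene and less of its RNA per cell cannot be told apart.

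GTF2H3 encodes a small core subunit that pairs with the GTF2H2 protein and stabilises the complex. Its brightest probe set, 11759419_at, read 10.00, 9.82 and 9.78 in CDKL1 shRNA arrays, against 8.53, 8.46 and 8.69 in control shRNA arrays. All CDKL1 shRNA arrays were above all control arrays. This contrast chose the complex, so the separation and the values that follow only describe it. The means were 9.87 ± 0.12 in CDKL1 shRNA arrays and 8.56 ± 0.12 in control shRNA arrays (SD, n = 3 each), a log2 change of 1.31 (SE 0.08) or 2.47-fold, the rank of which was 6 among the log2 changes of all 18132 genes.

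The other GTF2H3 probe set did not follow. Probe set 11742947_at read 8.93, 8.61 and 8.68 in CDKL1 shRNA arrays, against 8.62, 8.58 and 8.61 in control shRNA arrays. The groups overlapped there: CDKL1 shRNA replicates 1 and 3 read above all control arrays, replicate 3 by little, and replicate 2 read among them. The log2 change was 0.14 (SE 0.08). Within each array, 11759419_at minus 11742947_at was 1.07, 1.21 and 1.10 in CDKL1 shRNA arrays and -0.09, -0.12 and 0.08 in control shRNA arrays. The changes of the 2 probe sets thus differed by 1.17 on the log2 scale. With the ACTB covariate the log2 change of GTF2H3 by 11759419_at was 1.42, and the changes of the 2 probe sets differed by 1.06.

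Which probe set stands for GTF2H3 turned on the CDKL1 shRNA arrays. With the mean over all 6 arrays 11759419_at was the brighter, but over the control arrays alone 11742947_at was, at 8.60 against 8.56. By the control-array choice, which was made after seeing the data, the log2 change of GTF2H3 was 0.14, and by the mean of both probe sets it was 0.72. The brightest probe set changed with this choice for 291 of the 11734 genes with more than 1 probe set. The sequences of the probes were not used here, so which part of the transcript each probe set reads was not determined.

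**Figure D1:**
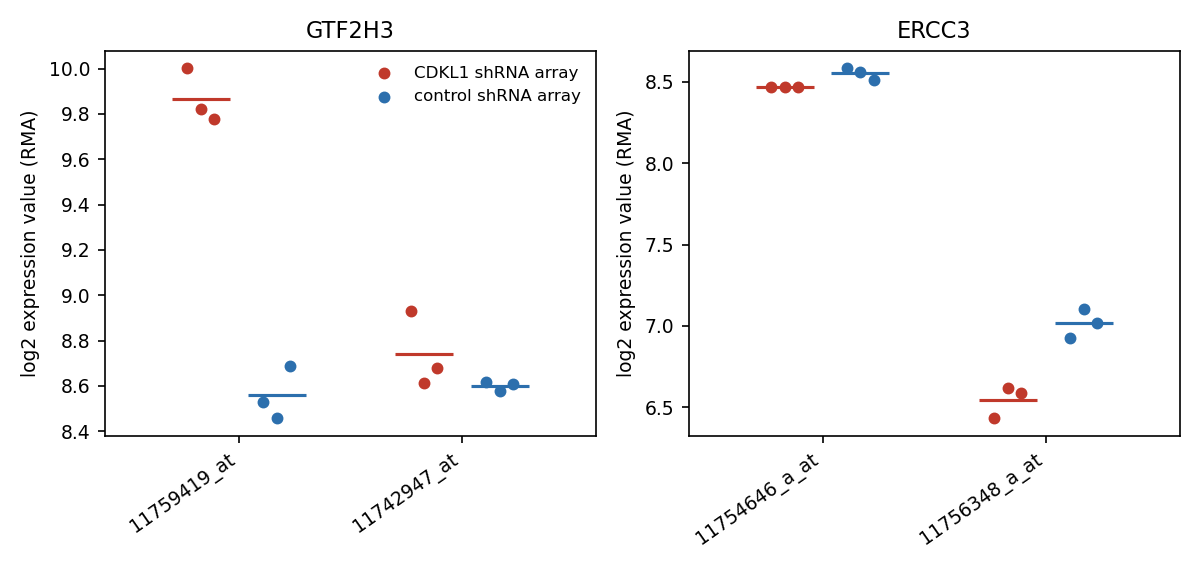
Log2 expression values of the 2 probe sets of GTF2H3 (left panel) and of ERCC3 (right panel) in each array, with CDKL1 shRNA arrays in red to the left of control shRNA arrays in blue and a line at each group mean (n = 3 each). The group means of GTF2H3 are 1.31 apart in 11759419_at and 0.14 apart in 11742947_at, and the groups of ERCC3 are 0.47 apart in the dimmer probe set and 0.08 apart in the brighter.

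Of the 8 other measured subunit genes, 1 rose, 1 fell (GTF2H4, inside the background range) and 6 did not pass the test across all genes (limma, Benjamini-Hochberg adjusted p under 0.05). These 2 of 8 stand beside a background of 16.8% of all genes called, 8.97% higher and 7.79% lower in CDKL1 shRNA arrays, so the share of called subunits was near that of genes at large. Their log2 changes ran from -0.42 to 0.21 with a median of 0.02, against -0.01 over all genes, and the median size of the change was 0.09 both for these 8 and for all genes. The groups did not overlap for 5 of the 8, beside 35.7% of all genes. Over single probe sets, 2 of the 19 of these 8 genes were higher and 2 lower, beside 12.6% of all 49293 non-control probe sets called, 7.38% higher and 5.24% lower. With the ACTB difference as a covariate no subunit gene passed (limma, 0 of 8, with 2 at an unadjusted p under 0.05), in a fit that called 219 genes in all. That fit cannot fully separate the covariate from group.

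**Figure D2:**
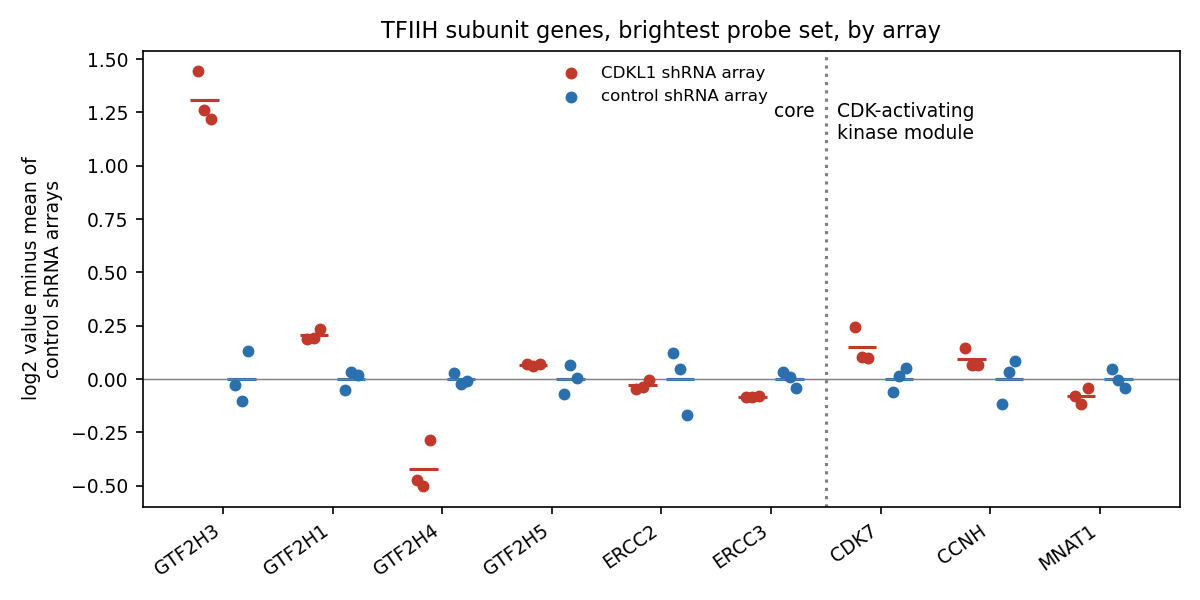
Log2 value of the brightest probe set of each measured TFIIH subunit gene in each array, minus the mean of the control shRNA arrays, with CDKL1 shRNA arrays in red to the left of control shRNA arrays in blue and a line at each group mean (n = 3 each). GTF2H3 stands 1.31 above its control mean, GTF2H1 0.21 above and GTF2H4 (inside the background range) 0.42 below, and the remaining subunits lie within 0.15 of theirs.

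GTF2H1 encodes the core subunit that docks TFIIH to transcription activators and repair factors. It rose by a small amount: probe set 11742757_x_at read 9.66, 9.67 and 9.71 in CDKL1 shRNA arrays, against 9.42, 9.51 and 9.49 in control shRNA arrays. All CDKL1 shRNA arrays were above all control arrays. The log2 change was 0.21 (SE 0.045, 1.15-fold, limma adjusted p = 0.022). Of the 8 probe sets of GTF2H1, which may share probes, 7 had a positive log2 change between 0.15 and 0.24, and 2 of them passed over all probe sets. The exception was 11746625_a_at at -0.11, in which CDKL1 shRNA replicate 1 read 8.24 and replicates 2 and 3 read 7.67 and 7.65. The call was close to the threshold, since adjusted p was 0.0514 to 0.0834 without CDKL1 shRNA replicate 1, 2 or 3 or control shRNA replicate 2 or 3, with log2 changes of 0.19 to 0.22. With the mean of all its probe sets the change was 0.16 (adjusted p = 0.0618), and with the ACTB covariate it was 0.22 (adjusted p = 0.25).

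GTF2H4 encodes the core subunit that anchors and stimulates the ERCC3 translocase. Its only probe set with 1 symbol, 11762181_a_at, read 4.10, 4.07 and 4.29 in CDKL1 shRNA arrays, against 4.60, 4.55 and 4.57 in control shRNA arrays. All CDKL1 shRNA arrays were below all control arrays, and GTF2H4 fell by 0.42 on the log2 scale (SE 0.06, limma adjusted p = 0.00552). Both groups lie inside the background range of 2.97 to 4.92, so this probe set does not show that GTF2H4 was detected, and the size of the fall is uncertain. With the ACTB covariate the change was -0.33 and did not pass (adjusted p = 0.204).

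A further 2 probe sets are annotated jointly to GTF2H4 and to VARS2, the mitochondrial valyl-tRNA synthetase gene, and both fell. Probe set 11743145_a_at read 8.22, 8.23 and 8.16 in CDKL1 shRNA arrays, against 9.25, 9.17 and 9.11 in control shRNA arrays. Probe set 11751089_a_at read 8.13, 8.02 and 8.09 in CDKL1 shRNA arrays, against 8.97, 8.92 and 8.85 in control shRNA arrays. In both, the groups lay far apart and well above that background range. The log2 changes were -0.97 (SE 0.06, limma adjusted p = 0.000191 over all probe sets) and -0.83 (SE 0.06, adjusted p = 0.000355), or 1.96-fold and 1.78-fold lower. Both passed without any 1 of the arrays, at -1.005 to -0.94 and -0.86 to -0.80, and with the ACTB covariate (adjusted p = 0.0269 and 0.0465).

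The probe sets of VARS2 alone, looked up after these values were seen, differed far less. None of the 4 passed over all probe sets (limma, 1 at an unadjusted p under 0.05), and their log2 changes were -0.02, -0.03, -0.06 and -0.13. The brightest of them, 11755665_x_at, read 8.45, 8.54 and 8.55 in CDKL1 shRNA arrays, against 8.59, 8.67 and 8.65 in control shRNA arrays, with an interval of the change from -0.25 to -0.003. The difference between the joint probe sets and those of VARS2 alone was not tested, and the only probe set of GTF2H4 alone is too dim to be set against them. The signal of the joint probe sets cannot be assigned to GTF2H4 or to VARS2 from the annotation.

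ERCC3, the translocase that GTF2H4 anchors, did not pass in its brightest probe set. Probe set 11754646_a_at read 8.47 in each of the 3 CDKL1 shRNA arrays, against 8.58, 8.56 and 8.51 in control shRNA arrays. The groups did not overlap, but the log2 change was only -0.08 with a 95% interval from -0.18 to 0.02 (limma adjusted p = 0.241). The dimmer probe set 11756348_a_at read 6.43, 6.62 and 6.59 in CDKL1 shRNA arrays, against 6.93, 7.11 and 7.02 in control shRNA arrays. It fell by 0.47 (SE 0.07, limma adjusted p = 0.00679 over all probe sets), passed without any 1 of the arrays and did not pass with the ACTB covariate (-0.60, adjusted p = 0.107). The mean of both probe sets fell by 0.28 (adjusted p = 0.00613). As for GTF2H3, the size of the change of ERCC3 thus depended on the probe set. The estimates of each gene had the same sign. That sign is uncertain for 11754646_a_at of ERCC3 and for 11742947_at of GTF2H3 (95% interval -0.06 to 0.34), whose intervals include 0.

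ERCC2, the helicase needed for repair, gave no detectable difference. Its brightest probe set, 11754536_a_at, read 8.38, 8.40 and 8.43 in CDKL1 shRNA arrays, against 8.56, 8.48 and 8.26 in control shRNA arrays. The groups overlapped, and the log2 change of -0.03 had a 95% interval from -0.21 to 0.15 (limma adjusted p = 0.839). The other 2 probe sets of ERCC2 gave 0.06 and 0.03. For GTF2H5, whose small protein stabilises the complex, 11725655_at read 9.85, 9.85 and 9.85 in CDKL1 shRNA arrays, against 9.71, 9.85 and 9.79 in control shRNA arrays. Control replicate 2 reached the level of the CDKL1 shRNA arrays, and the log2 change of 0.07 did not pass (interval -0.05 to 0.18, adjusted p = 0.404).

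GTF2H2, which encodes the subunit that activates the ERCC2 helicase, could be seen only through 4 probe sets that also name its near-identical copies GTF2H2B, GTF2H2C and GTF2H2C_2. Their log2 changes were 0.11, 0.11, 0.06 and 0.05, and none passed over all probe sets (limma, adjusted p from 0.196 to 0.724, with 0 at an unadjusted p under 0.05). The brightest, 11754488_s_at, read 11.28, 11.36 and 11.31 in CDKL1 shRNA arrays, against 11.23, 11.26 and 11.29 in control shRNA arrays, with overlapping groups. The signal of GTF2H2 itself cannot be separated from that of its copies.

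**Figure D3:**
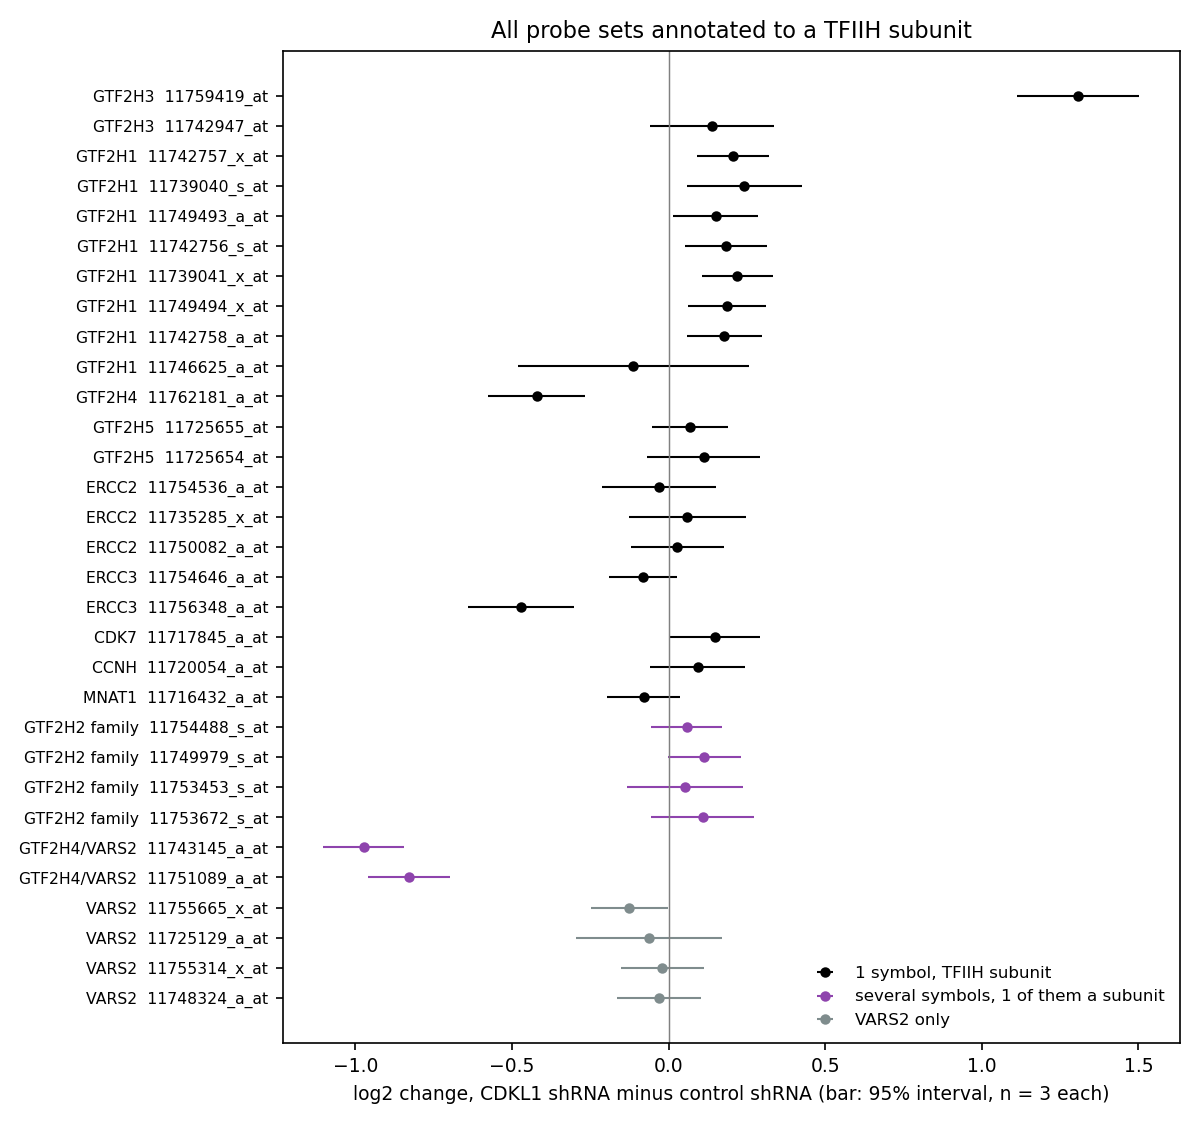
Log2 change (CDKL1 shRNA minus control shRNA) of every probe set annotated to a TFIIH subunit, with 95% intervals from limma (n = 3 each): probe sets with 1 symbol in black, those with several symbols in purple and VARS2 alone in grey. The joint GTF2H4/VARS2 probe sets lie at -0.97 and -0.83 while those of VARS2 alone lie between -0.13 and -0.02, and the 2 probe sets of GTF2H3 lie at 1.31 and 0.14.

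The 3 genes of the kinase module each had 1 probe set, and none passed (limma, with CDK7 at an unadjusted p under 0.05). CDK7, the catalytic subunit, read 11.23, 11.08 and 11.08 in CDKL1 shRNA arrays, against 10.92, 11.00 and 11.03 in control shRNA arrays. All CDKL1 shRNA arrays were above the control arrays, but replicates 2 and 3 only narrowly. Its log2 change was 0.15 with an interval from 0.01 to 0.28 (adjusted p = 0.134), and it passed when the variance was modelled with an intensity trend and a robust prior (adjusted p = 0.0243).

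CCNH, the cyclin partner of CDK7, read 10.07, 9.98 and 9.99 in CDKL1 shRNA arrays, against 9.80, 9.95 and 10.00 in control shRNA arrays. The groups overlapped, with a log2 change of 0.09 (interval -0.05 to 0.24, adjusted p = 0.381, limma). MNAT1, the assembly factor of the module, read 9.21, 9.17 and 9.25 in CDKL1 shRNA arrays, against 9.33, 9.29 and 9.25 in control shRNA arrays. CDKL1 shRNA replicate 3 and control replicate 3 nearly met, and the log2 change of -0.08 did not pass (interval -0.19 to 0.03, adjusted p = 0.299, limma). CDKL1 shRNA replicate 1 gave the highest reading of the 6 arrays in CDK7, CCNH and both probe sets of GTF2H3.

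GTF2H3 was next set beside its neighbours on chromosome 12, taken as the 3 measured genes on each side in the RefSeq gene table. Of these 6 genes 3 rose and 3 did not pass, beside 8.97% of all genes higher. Their changes were far smaller than the 1.31 of GTF2H3 probe set 11759419_at. The 3 that rose did so by 0.24 to 0.28, and the estimate of the other GTF2H3 probe set, 11742947_at, was 0.14. The interval of that estimate, -0.06 to 0.34, includes the changes of these 3 neighbours. Whether 11742947_at changed less than they did was not tested. EIF2B1, which encodes a subunit of the translation factor eIF2B, is annotated on the opposite strand with 142 bases between the genes, so that its start lies inside the GTF2H3 window shown above. EIF2B1 read 10.66, 10.69 and 10.68 in CDKL1 shRNA arrays, against 10.39, 10.49 and 10.45 in control shRNA arrays. It rose by 0.24 (SE 0.04, limma adjusted p = 0.0131), and all 3 of its probe sets had a positive change, 0.24 to 0.39, 2 of them passing. Without CDKL1 shRNA replicate 3 its adjusted p was 0.0522.

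TMED2, a carrier of cargo between the endoplasmic reticulum and the Golgi, read 13.16, 13.16 and 13.17 in CDKL1 shRNA arrays, against 12.90, 12.91 and 12.91 in control shRNA arrays. It rose by 0.26 (SE 0.04, limma adjusted p = 0.00522), and 3 of its 3 probe sets passed. ATP6V0A2, a subunit of the vacuolar proton pump, rose by 0.28 (SE 0.05, adjusted p = 0.0113). Its 3 probe sets lay between -0.01 and 0.28, and only 1 of them passed. DDX55, between TMED2 and EIF2B1, had a change of 0.05 (interval -0.06 to 0.15), TCTN2 of 0.11 (interval -0.09 to 0.31) and DNAH10 of -0.06 (interval -0.19 to 0.07), and none of these 3 passed (limma, 0 at an unadjusted p under 0.05). With the ACTB covariate the changes of TMED2, EIF2B1 and ATP6V0A2 were 0.27, 0.21 and 0.24 and did not pass (adjusted p = 0.152, 0.259 and 0.258). Of the 6 neighbours 2 passed with the mean of all probe sets (limma). With the brightest probe set of the control arrays, chosen after seeing the data, 2 passed as well.

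**Figure D4:**
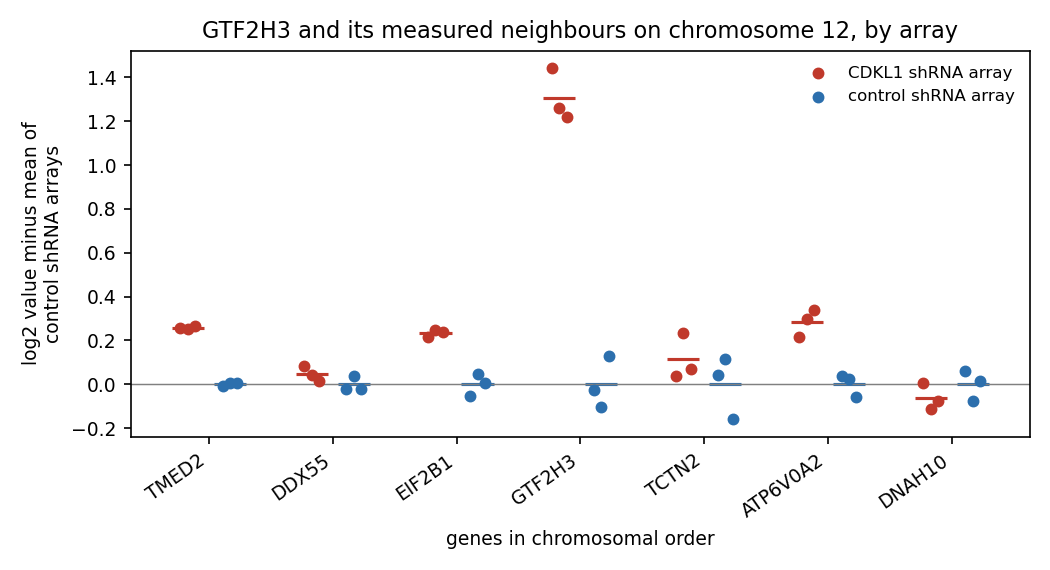
Log2 value in each array minus the mean of the control shRNA arrays for GTF2H3 (probe set 11759419_at) and the 3 nearest measured genes on each side, in chromosomal order and not to scale, with CDKL1 shRNA arrays in red to the left of control shRNA arrays in blue (n = 3 each). TMED2, EIF2B1 and ATP6V0A2 stand 0.26, 0.24 and 0.28 above their control means, against 1.31 for this probe set of GTF2H3 and 0.14 for its other probe set, which is not shown.

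By profile, the 5 genes most like GTF2H3 were CPA4, APP, SELENOM, AHNAK2 and CXCL3. Likeness was the mean absolute difference over the 6 arrays after each gene was centred on its control mean, which was 0.09 for CPA4, 0.10 for APP, 0.11 for SELENOM and 0.13 for AHNAK2 and CXCL3 on the log2 scale. Their log2 changes were 1.23, 1.25, 1.25, 1.39 and 1.13, so the measure mostly collects genes with a difference of the same size, and none of them is a TFIIH gene.

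Among the 15 measured nucleotide excision repair genes that work with TFIIH, 2 rose, 3 fell and 10 did not pass, beside 16.8% of all genes called, with a median log2 change of 0.00 against -0.01 over all genes. The 2 that rose encode the partners of 1 nuclease, which cuts the damaged strand on its 5' side. ERCC4 read 8.27, 8.31 and 8.35 in CDKL1 shRNA arrays, against 8.01, 8.05 and 8.04 in control shRNA arrays, and rose by 0.27 (SE 0.04, limma adjusted p = 0.00613). ERCC1 rose by 0.23 (SE 0.05, adjusted p = 0.0265). XPC, the damage sensor that recruits TFIIH, read 8.93, 8.98 and 9.04 in CDKL1 shRNA arrays, against 9.25, 9.25 and 9.20 in control shRNA arrays, and fell by 0.25 (SE 0.05, adjusted p = 0.014). The single-strand binding subunit gene RPA2 fell by 0.20 (SE 0.04, adjusted p = 0.0142), and the ultraviolet damage sensor gene DDB2 fell by 0.20 (SE 0.05, adjusted p = 0.0298). Only ERCC4 passed without each 1 of the arrays. The list had 3 called genes without CDKL1 shRNA replicate 2 or control replicate 1, 1 without control replicate 2 and 2 without control replicate 3.

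Of 20 measured initiation factor genes of RNA polymerase II, 4 rose, 0 fell and 16 did not pass (limma, with 6 positive and 1 negative change at an unadjusted p under 0.05), with a median log2 change of 0.07. In either direction, these 4 of 20 are near the 16.8% of all genes called. By direction, 20% of the list rose, beside 8.97% of all genes higher, and 0 fell, beside 7.79% lower. The count of falls depended on the fit: without CDKL1 shRNA replicate 2, 3 rose and 1 fell (limma). With an intensity trend and a robust prior 7 rose and 1 fell. Whether the list leans upward was not tested. TAF11, a subunit of the promoter recognition factor TFIID, read 9.84, 9.71 and 9.80 in CDKL1 shRNA arrays, against 9.23, 9.36 and 9.41 in control shRNA arrays, and rose by 0.45 (SE 0.06, limma adjusted p = 0.00394). GTF2F2 and GTF2F1, the subunits of TFIIF, rose by 0.31 (SE 0.05, adjusted p = 0.00776) and 0.18 (SE 0.04, adjusted p = 0.0362), and GTF2A2 of TFIIA rose by 0.22 (SE 0.06, adjusted p = 0.0382). The largest change of the list, 0.61 for TAF13, did not pass (adjusted p = 0.0932) and came with a wide spread, at 7.45, 6.53 and 6.86 in CDKL1 shRNA arrays against 6.39, 6.39 and 6.23 in control shRNA arrays. The largest negative change, -0.29 for TAF8, did not pass either (limma adjusted p = 0.0797). TAF11 and GTF2F2 passed without any 1 of the arrays, whereas 2 genes of the list passed without CDKL1 shRNA replicate 1 or 3 or control replicate 2. GTF2F1 and GTF2A2 each passed in only 1 of the 6 fits that left out 1 array.

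Of the 12 subunit genes of RNA polymerase II itself, 2 rose, 1 fell and 9 did not pass, beside 16.8% of all genes called, with a median of -0.01. POLR2C rose by 0.24 (SE 0.05, limma adjusted p = 0.016), POLR2K rose by 0.17 (SE 0.04, adjusted p = 0.0284) and POLR2L fell by 0.17 (SE 0.05, adjusted p = 0.0443). Without CDKL1 shRNA replicate 1 or control replicate 3 the count was 1, and without CDKL1 shRNA replicate 2 or 3 or control replicate 2 it was 0 (limma, with 3 at an unadjusted p under 0.05 each time). POLR2K lost its call in every fit that left out 1 array, POLR2L passed in 1 of the 6 and POLR2C in 3.

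Of the 7 CDK genes whose proteins the kinase module phosphorylates, 2 rose, 3 fell and 2 did not pass, beside 16.8% of all genes called (8.97% higher and 7.79% lower), with a median of -0.01. CDK2, which drives entry into S phase, read 8.95, 8.91 and 8.98 in CDKL1 shRNA arrays, against 9.49, 9.50 and 9.43 in control shRNA arrays. All CDKL1 shRNA arrays were below all control arrays, and CDK2 fell by 0.53 (SE 0.04, limma adjusted p = 0.000563). The cell cycle kinase genes CDK4 and CDK1 fell by 0.27 (SE 0.04, adjusted p = 0.0054) and 0.25 (SE 0.04, adjusted p = 0.00804). The transcription elongation kinase genes CDK13 and CDK12 rose by 0.27 (SE 0.05, adjusted p = 0.0104) and 0.15 (SE 0.04, adjusted p = 0.0473). CDK12 lost its call in every fit that left out 1 array. With the mean of all probe sets neither was called higher: 0 of the 7 CDK genes rose and 3 fell (limma). With the ACTB covariate CDK2 changed by -0.49 and narrowly missed the threshold (adjusted p = 0.0576), and 0 genes of these 4 lists passed in that fit (limma, with 4 repair, 5 initiation factor, 0 polymerase subunit and 5 CDK genes at an unadjusted p under 0.05).

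**Figure D5:**
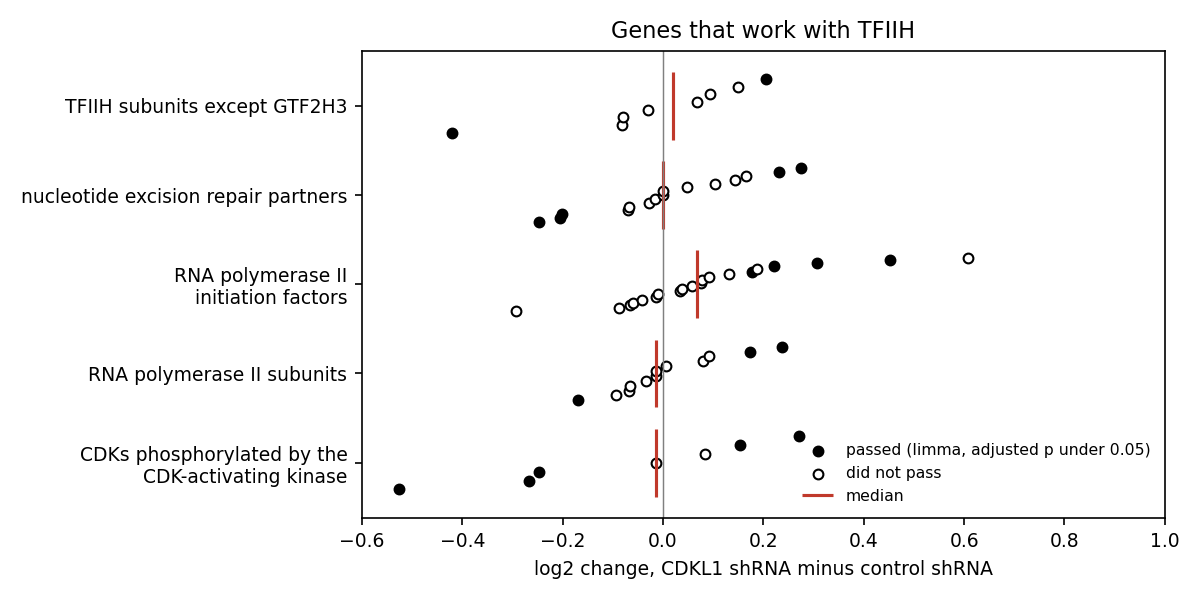
Log2 change (CDKL1 shRNA minus control shRNA) of each gene of 4 lists of TFIIH partners and of the 8 TFIIH subunits other than GTF2H3, with filled points for genes past an adjusted p of 0.05 (limma), open points for the rest and a red line at each median. The subunit median is 0.02 and the list medians lie between -0.01 and 0.07, while single genes reach -0.53 (CDK2) and 0.61 (TAF13, not past the threshold).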

How the data were processed

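The deposited table holds log2 values for 49395 probe sets on 6 arrays, which the authors made with RMA (background correction, quantile normalisation between arrays and summary to 1 value per probe set), per the submitters' processing notes. The sources used here give no version or settings of RMA. It draws changes of dim probe sets towards 0. Groups come from the sample titles, and 0 columns were left unused. Probe sets were named through the platform annotation: 44988 had 1 symbol, 1832 several and 2473 none, and 102 control probe sets were left out of the tests. For 44961 of those with 1 symbol the Entrez identifier was found in RefSeq (GRCh38.p14).

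Group was fitted to the log2 values of 18132 genes, or of all non-control probe sets, with limma 3.58.1 in R 4.3.3 (lmFit, eBayes, two-sided, Benjamini-Hochberg over all features, threshold 0.05). The fit was tested on simulated data, where 34% of 1.2-fold and 80% of 1.5-fold changes passed. Small changes can thus be missed. The simulation had 159 calls, against 3040 in these data, and no RNA quality difference, so these shares are only a guide. Tables used Python 3.11.15, pandas 2.3.3 and matplotlib 3.10.9. The small number of arrays limits the precision.

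The members, gene lists, neighbours and alternatives were chosen with earlier results of these data known. Named genes were all subunits, the 4 called genes with the smallest adjusted p of each list, the neighbours of GTF2H3 and the 5 profiles most like it. Further called members of a list (DDB2, CDK12), TAF13 and TAF8 were named after their values were seen. Alternatives were a replicate block, leaving out each array, further normalisations, averaged probe sets, a filter on dim genes, the ACTB covariate and another variance model.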

Additional observations from a re-analysis of the deposited data

How the results depend on the processing

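With 3 arrays per group and small changes, calls near the threshold depended on single arrays. With 1 array left out, 1633 to 2399 genes were called in place of 3040 (2026 without CDKL1 shRNA replicate 2, 1633 without CDKL1 shRNA replicate 3, 1839 without control replicate 2, 1865 without control replicate 3), and 1 to 2 of the 8 TFIIH genes in place of 2, 2 of 19 subunit probe sets in place of 4, 1 to 4 repair genes in place of 5, 2 to 4 initiation factor genes in place of 4, 0 to 2 polymerase subunit genes in place of 3 (limma, 3 at an unadjusted p under 0.05 where 0), 4 CDK genes in place of 5 and 2 to 3 neighbours of GTF2H3 in place of 3. The 2 probe sets lost each time were those of GTF2H1, and fewer arrays also mean less precision. Without an array the log2 change of GTF2H3 was 1.24 to 1.37 and its probe sets differed by 1.13 to 1.23.

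With the replicate block 1803 genes were called, 1 TFIIH gene, 2 subunit probe sets, 1 repair gene, 2 initiation factor genes and 1 polymerase subunit gene. The shared replicate numbers did not pair the samples: same-numbered arrays deviated from their group means with correlations of -0.03, -0.12 and 0.07 over genes. With the ACTB covariate 219 genes were called, and 0 TFIIH genes, subunit probe sets, repair, initiation factor, polymerase subunit, CDK or neighbouring genes (limma, with 2, 4, 4, 5, 0, 5 and 3 at an unadjusted p under 0.05). The GTF2H3 probe sets then differed by 1.06. Among genes above all background controls, of which 1811 were left, 943 were called, with 1 TFIIH gene (CDK7, the only one left), 1 subunit probe set, 2 repair genes, 2 initiation factor genes, 2 CDK genes and 1 neighbour; neither GTF2H3 probe set was left. Above the background controls with 10 to 16 G or C bases, a filter chosen after seeing the data, 1 TFIIH gene was called of 7 left. With the mean of all probe sets 2 initiation factor and 3 CDK genes were called, the CDK genes all lower, and GTF2H3 changed by 0.72. With the brightest probe set of the control arrays, chosen after seeing the data, GTF2H3 changed by 0.14. With an intensity trend and robust prior 8 initiation factor genes (7 higher, 1 lower) and 10 subunit probe sets were called. ERCC2, called in none of these fits, had a log2 change of -0.11 to 0.032 with 1 array left out, positive without control replicate 1, and 0.019 with the mean of its probe sets. The causes of these differences were not tested.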
